A study of Nothobranchius furzeri with 16 samples.

Results

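Ependymin, listed under the symbol EPD, was followed in the ribosome footprints of young and old killifish brain. It is 1 of the 28494 gene symbols in the footprint table. EPD was chosen by its footprint FPKM at 6 and 26 weeks, so that its levels, its ranks and its difference with age in that assay are given as a description and without a test. The RNA counts of the same gene were not used in the choice and were tested.

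Ependymin is a secreted glycoprotein of the brain of bony fish, found in the cerebrospinal fluid and in the fluid between cells. In goldfish it is made by fibroblast-like cells of the meninges, the membranes around the brain, and it has been studied there in memory formation and in regrowth of the optic nerve. The protein binds calcium and associates with collagen, and mammals carry a related gene, EPDR1. As a secreted protein it is translated by ribosomes at the endoplasmic reticulum, where its signal peptide is removed and its sugars are added.

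The data came from whole brain of male Nothobranchius furzeri, the African turquoise killifish, a short-lived annual fish, of strain MZM-04/10p. Young fish were 6 weeks old and old fish 26 weeks old, and no other treatment or allele was named. Of the 16 libraries, 8 held ribosome footprints, the RNA fragments shielded by ribosomes (ART-seq, without depletion of ribosomal RNA), and 8 held RNA, with 4 libraries per age in each assay. The labels do not say whether libraries came from separate fish, so spreads and p-values describe the libraries, and in whole tissue fewer cells of a type and less RNA per cell cannot be told apart.

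Footprint libraries were shallow, and this set the precision of every EPD value. FPKM (fragments per kilobase and 1000000 mapped fragments) values of a gene came in whole steps of a single read's value, from which reads were recovered for 6427 of the 6472 genes above 0. Without the 4 symbols named below, the young libraries held 329 to 2252 recovered reads and the old libraries 2016 to 4223. All totals and shares of recovered reads given here leave out these symbols, so they are not shares of all footprint reads. Young replicate 4, with 329 reads on 258 genes, stood apart as the shallowest library. The symbols BX296557.7, PPP1R9A(2of2), POLR1B and SLC22A16(1of2) together took 90.3% to 99.5% of each library's summed FPKM, and they were left out. FPKM was then rescaled to sum to 1000000 over all other genes (TPM). Of those other genes, 24 were above 0 in all 8 libraries. Among markers of brain cells, neuronal genes had 47 reads in the young and 119 in the old libraries, or 1.03% and 0.888% of recovered reads. Oligodendrocyte genes had 29 and 55 reads (0.637% and 0.411%), without PLP1B, whose reads were not recovered and whose means were 719.6 and 654.4 TPM. Astroglial genes had 18 and 86 reads (0.395% and 0.642%). Blood genes had 1 and 2 reads, and skeletal muscle genes 6 and 9.

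EPD was read in 7 of the 8 footprint libraries, with 98 reads in all. In the young libraries, replicates 1 to 4, it had 15, 8, 9 and 0 reads. In the old libraries it had 19, 10, 28 and 9 reads. The 0 of young replicate 4 fell in the library with the fewest reads, where the pooled share of the other 3 young libraries would have given 2.49 EPD reads.

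The deposited level of EPD was 923.3, 1118.05, 1265.74 and 0 FPKM in the young libraries and 697.24, 586.08, 1754.92 and 108.82 FPKM in the old ones. The low FPKM of old replicate 4 stood beside the highest share of the 4 left-out genes, 99.5%, while over the other libraries FPKM did not fall in the order of that share. With those genes left out, EPD stood at 13163, 15288, 18800 and 0 TPM in young brain and at 8391, 6013, 14448 and 8866 TPM in old brain. In TPM, young replicates 1 to 3 lay above old replicates 1, 2 and 4. Old replicate 3 fell among the young values, and young replicate 4 lay below all others, so the ages overlapped.

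The mean EPD level in TPM was 11813 ± 8211 in the young libraries and 9429 ± 3571 in the old ones (SD, n = 4 per age). The log2 ratio of these means, old over young, was -0.33, smaller than the spread within the young group. Without young replicate 4, the young mean was 15750 ± 2847 TPM (n = 3) and the log2 ratio -0.74. On the scale of log2(TPM + 10), in which the single 0 weighs most, old libraries were higher by 1.86. The direction of the EPD difference with age therefore turned with the scale.

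With so few reads, the counting error of each share was wide. As a share of recovered reads outside the 4 left-out genes, EPD took 0.666%, 0.746%, 1.001% and 0% in the young libraries. In the old ones it took 0.450%, 0.299%, 0.734% and 0.446%. The exact 95% Clopper-Pearson interval ran from 0.459% to 1.89% in young replicate 3, where the share was highest. It ran from 0.143% to 0.549% in old replicate 2, the lowest share above 0. For young replicate 4, 0 of 329 reads allows a share of up to 0.912% by the rule of 3 reads over the total, and the exact two-sided interval reaches 1.11%. In 0 of the 28 pairs of libraries did the intervals lie apart, which describes their width and is no test of a difference between libraries. Pooled over libraries, EPD took 32 of 4553 young reads, 0.703% (interval 0.481% to 0.991%). In old libraries it took 66 of 13398 reads, 0.493% (interval 0.381% to 0.626%). These intervals overlapped as well. They cover counting error only and leave out differences between libraries. They also treat reads as independent, whereas reads without molecular identifiers are not independent molecules, so they may be too narrow.

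**Figure D1:**
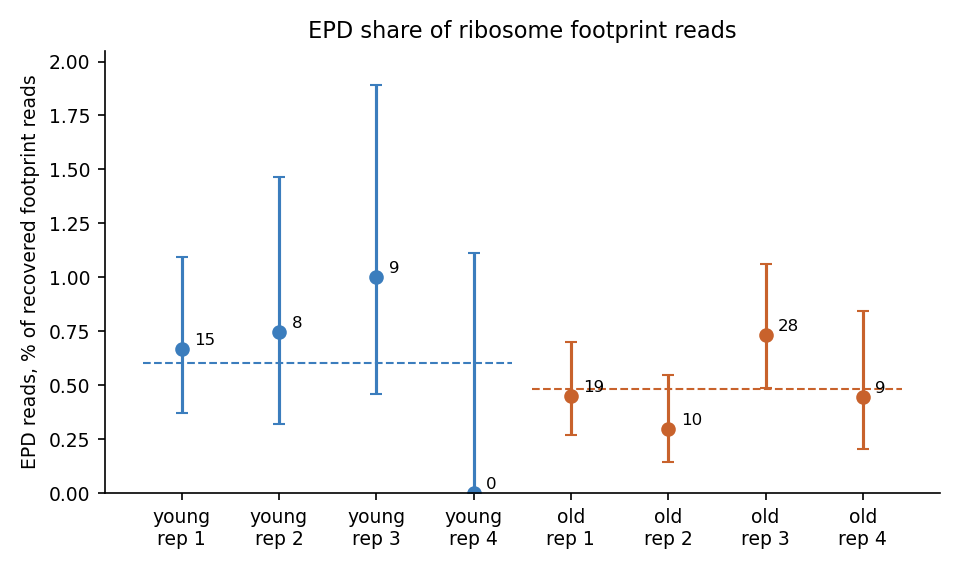
Share of recovered footprint reads, outside the 4 left-out genes, that fell on EPD, in percent, for each library. Points are libraries (young, 6 weeks, in blue and old, 26 weeks, in orange), bars are exact 95% Clopper-Pearson intervals, numbers beside the points are EPD reads, and dashed lines are the means of each age. The bars of all 8 libraries overlap, and young replicate 4 stands at 0 reads with an interval that reaches 1.11%.

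EPD was among the most highly ranked genes of the footprint table wherever it was detected. With the 4 genes left out, it ranked 3, 2 and 2 in young replicates 1 to 3, among 1486, 789 and 672 genes above 0. In the old libraries it ranked 4, 9, 1 and 4, among 2601, 2088, 2372 and 1375 genes above 0. In young replicate 4 it was listed at 0 and had no rank, while ITFG2(1of2), a subunit of a complex that restrains mTORC1 signalling in mammals, was highest there with 58762 TPM. EPD was the sole gene to rank 10 or better in at least 7 of the 8 libraries. NFURG00534170200 and ZGC:173961(1of2) did so in 6. With no gene left out, EPD ranked 7, 6 and 6 in young and 8, 13, 5 and 8 in old libraries. By recovered reads, which are not divided by gene length, it ranked 8, 7 and 3 and then 10, 23, 4 and 14. Genes whose reads were not recovered, such as ZGC:173961(1of2), are missing from that ranking, so EPD may stand too high in it.

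The genes next to EPD in rank differed in how close they lay to it. In young replicate 1, EXOSC9(2of2), a subunit of the RNA exosome, stood above it at 14300 TPM and NFURG01154040003 below it at 9353 TPM. In young replicate 2, NFURG00534170200 stood above it at 25115 TPM and HMGB1(1of2), which encodes a DNA-bending chromatin protein, below it at 14554 TPM. In young replicate 3, HMGB1(1of2) stood above it at 47726 TPM and HSBP1B, a heat shock factor binding protein, below it at 17927 TPM.

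The old libraries gave other neighbours. HMGB1(1of2) at 10090 TPM and the ribosomal protein gene RPS26 at 8224 TPM framed EPD in old replicate 1. In old replicate 2 these were COII(3of3), a subunit of cytochrome c oxidase, at 6066 TPM and NFURG03393110002 at 5299 TPM. In old replicate 3, where EPD was highest of all genes, NFURG00534170200 followed at 13563 TPM. In old replicate 4 the neighbours were GAPDHS, a glycolytic enzyme gene, at 10252 TPM and HMGB1(2of2) at 8501 TPM. A single EPD read was worth between 442 TPM in old replicate 1 and 2089 TPM in young replicate 3. In 5 of the 7 libraries a neighbour lay within the worth of 1 EPD read, so the order of neighbours was not resolved there.

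**Figure D2:**
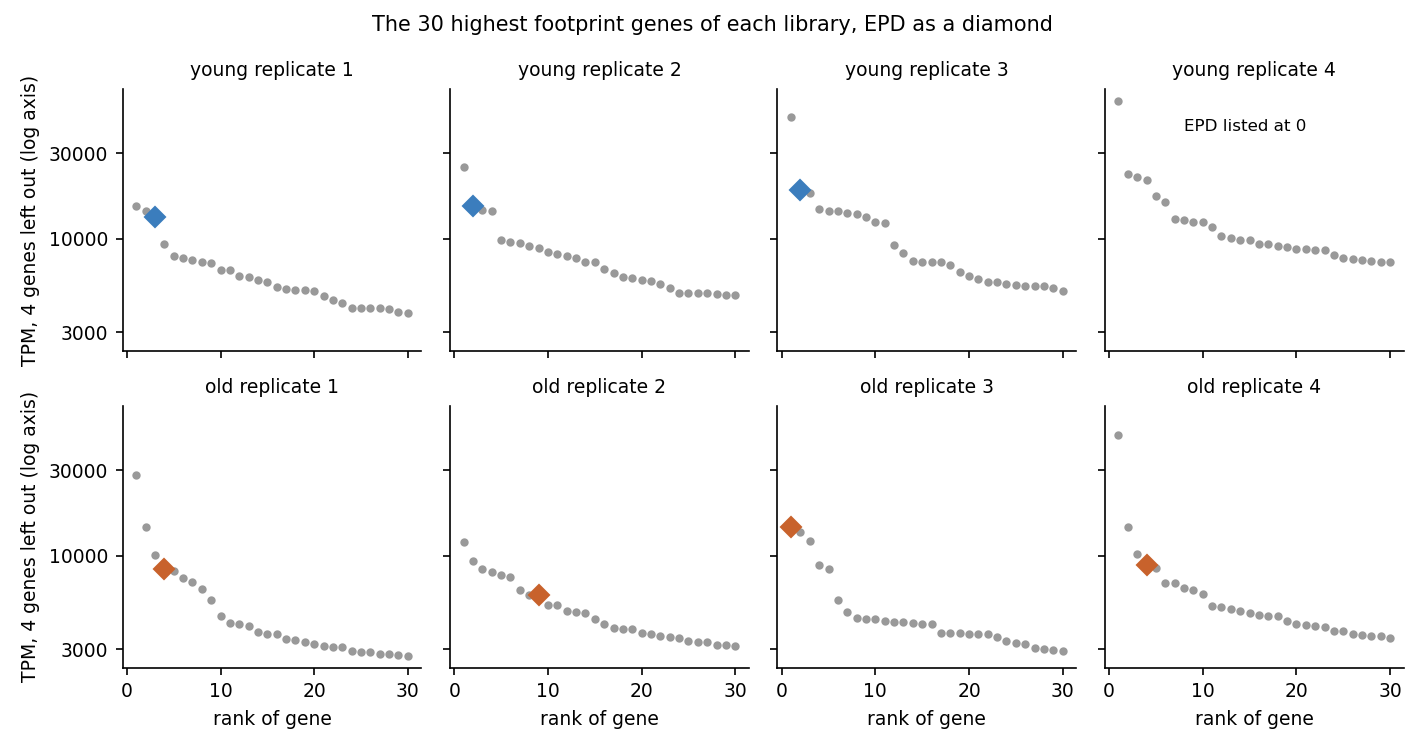
Footprint level in TPM (4 genes left out, log axis) of the 30 highest genes of each library against their rank, with EPD drawn as a coloured diamond and other genes in grey. EPD lies between rank 1 and rank 9 in 7 libraries and is listed at 0 in young replicate 4.

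Over the 8 libraries EPD had the fourth highest mean, 10621 TPM. Above it were ITFG2(1of2) at 13307, ZGC:173961(1of2) at 11566 and NFURG00534170200 at 11376 TPM. Below it came EXOSC9(2of2) at 10425, HMGB1(1of2) at 9882, NINJ1(1of2), a membrane protein gene, at 5935, HMGB1(2of2) at 5288, APOA1 at 5068 and MAP7D2, a microtubule-binding protein gene, at 5049 TPM. The mean of ITFG2(1of2) rested on young replicate 4, which gave 55.2% of its summed TPM, whereas the highest library of EPD gave 22.1%. Symbols with a suffix such as (1of2) mark 1 copy of a duplicated gene, and reads of near-identical copies may be divided among them.

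Relatives of ependymin were nearly absent from the footprints. The table holds 3 copies of EPDR1, the gene that mammals share. EPDR1(2of3) had 1 read, in old replicate 2 (21.01 FPKM), and EPDR1(1of3) and EPDR1(3of3) were listed at 0 in all 8 libraries. At the depth of these libraries, a count of 0 does not show that a gene is not translated.

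Other secreted proteins of brain and cerebrospinal fluid gave the nearest levels of a like kind. Of 78 rows matched to that list, 39 were above 0, with 103 reads in the young and 289 in the old libraries, or 2.26% and 2.16% of recovered reads. APOA1, the main protein of high-density lipoprotein, was read in all 8 libraries, with young reads of 15, 4, 5 and 1 and old reads of 16, 18, 14 and 6. TFA, the iron carrier transferrin, was also read in all 8, with young reads of 21, 6, 3 and 2 and old reads of 24, 14, 25 and 3. APOA2, another lipoprotein component, had 9 reads in the young and 24 in the old libraries. Unlike EPD, both APOA1 and TFA had reads in young replicate 4. In TPM, EPD exceeded APOA1 by 2.10-fold and TFA by 2.33-fold in the means over the 8 libraries. In total reads, which are not divided by gene length, TFA had 32 young and 66 old, the same as EPD. APOA1 had 25 and 54.

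The ratio of EPD to TFA within a library does not depend on which genes are left out. It was 1.64, 3.06, 6.87 and 0 in the young footprint libraries and 1.81, 1.64, 2.57 and 6.87 in the old ones. TFA itself rested on 2 or 3 reads in young replicates 3 and 4 and in old replicate 4, so that the ratios of 6.87 are loosely fixed. In RNA, the same ratio per length was 16.03, 9.52, 9.36 and 8.73 in young and 10.4, 7.90, 12.9 and 7.29 in old libraries. The RNA ratios per length all lay above the footprint ratios per length. The lengths came from different annotations, and without division by length the order did not hold in full. In young replicate 3 and old replicate 4, EPD had 9 footprint reads and TFA 3. In old RNA libraries the mean normalized count (scaling described below) was 4173 for EPD and 1472 for TFA. That is less than 3 times TFA, so some old RNA library lay below these footprint libraries. The highest read ratio of the other footprint libraries was 8 EPD to 6 TFA reads, in young replicate 2. The assays used different annotations and separate libraries, and the difference between them was not tested.

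**Figure D3:**
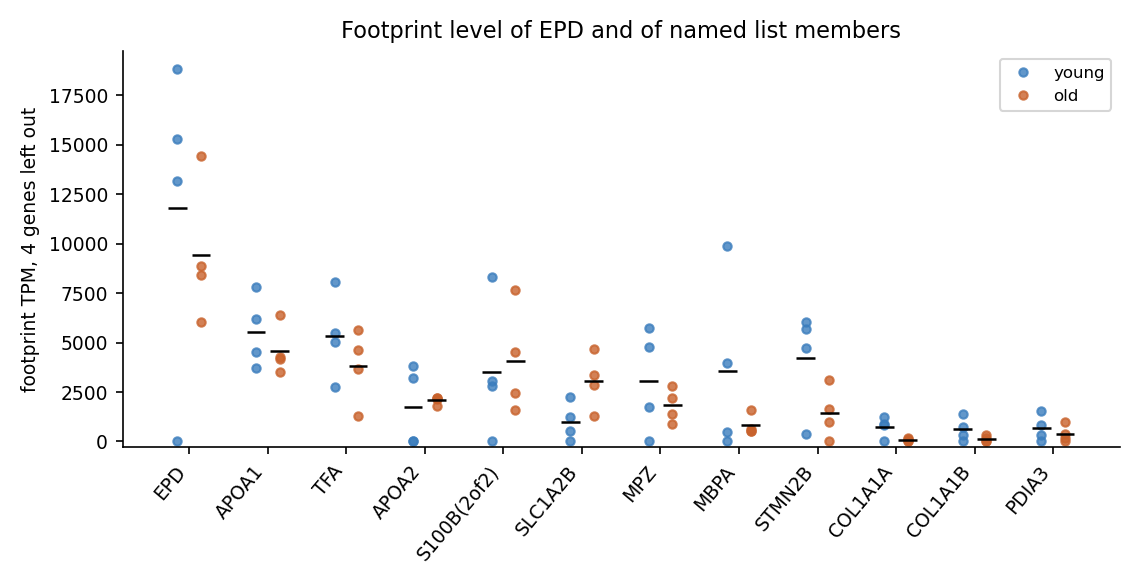
Footprint level in TPM (4 genes left out) of EPD and of members of the lists of secreted proteins, cell type markers, meningeal genes and secretory route genes. Each point is a library (young in blue, old in orange) and black lines are the means of each age. EPD, at 11813 TPM in young and 9429 TPM in old brain, lies above the means of the other genes drawn, and its young values run from 0 to 18800 TPM.

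The lists for the cells and the route through which ependymin is known to be made held, each over many genes, read totals of the order of the 32 young and 66 old reads of EPD. In the list of meningeal and fibroblast markers, 21 of 63 matched rows were above 0, with 35 young and 47 old reads, or 0.769% and 0.351% of recovered reads. Of the old reads, 13 were those of CDH11, a cadherin gene. In old replicate 1 its 7 recovered reads stood for 125 TPM, whereas 2 reads of COL1A1A stood for 173 TPM. Whether the recovery set the CDH11 reads too high was not tested. The type I collagen genes COL1A1A and COL1A1B had 8 reads each in the young libraries, and 3 and 5 in the old ones. COL14A1(10of10), a fibril-associated collagen gene, had 1 read, in a young library. Of the secretory route, the machinery that takes proteins into and out of the endoplasmic reticulum, 30 of 44 matched rows were above 0, with 26 young and 64 old reads. SRP72(1of2) and SRP19, parts of the signal recognition particle, had 2 reads each in the young libraries, and 1 and 2 in the old ones. PDIA3, a disulfide isomerase of glycoproteins, had 4 young and 6 old reads. Of the markers of ependyma and choroid plexus, the cells that line the ventricles and make cerebrospinal fluid, 2 young and 3 old reads were found.

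Across genes, limma on log2(TPM + 10) called 52 of 661 tested footprint genes between the ages (7.87%, adjusted p under 0.05). All 52 were genes at 0 in every young library and above 0 in every old one, which passed the filter on low values through the old libraries, the deeper group. Of the 16 tested members of the secreted list, CTSD(1of2), the lysosomal protease cathepsin D, was called, with 0 young reads and 1, 2, 3 and 1 old reads. Of the 6 tested members of the secretory route, HSP90B1, a chaperone of the endoplasmic reticulum, was called, with 0 young reads and 1, 4, 3 and 3 old reads. None of the 4 tested meningeal genes (0 of 4) was called by limma, and 0 of those 4 had an unadjusted p under 0.05. Over all 661 genes 98 had such a p by limma, so 0 of 4 says little about these members. The median log2 difference was 2.63 in the secreted list, -0.59 in the secretory route and -1.89 in the meningeal list, beside 1.62 over all 661 genes. A member that had to be high in old libraries to be tested had to differ, so these values describe the tested members and not the lists.

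The footprint profiles most like that of EPD over the 8 libraries were sought among 195 other genes above 0 in at least 6 of them. The highest Spearman coefficients with EPD were 0.97 for HSPA9, a mitochondrial chaperone gene, 0.93 for ANK1(1of2), a membrane skeleton adaptor gene, and 0.90 for NRDE2(3of3), an RNA processing gene. CLTCA, a clathrin heavy chain gene, had 0.87 and ACTG1(2of2), an actin gene, 0.86, a value that the next gene shared. All 5 were, like EPD, at 0 in young replicate 4, as were 141 of the 195 genes. HSPA9 rested on 8 reads in all. The points share their libraries and depth, and these coefficients are a description.

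In RNA, EPD was Nfu_g_1_005244, an identifier that the study's protein table pairs with the name epd. It was among the most counted genes of the brain, with 29410, 67570, 63635 and 67361 counts in the young and 20349, 49535, 45266 and 52656 counts in the old libraries. Library totals ran from 9461792 to 13771769 counts. EPD thus took 0.214%, 0.527%, 0.569% and 0.558% of all counts in young brain and 0.171%, 0.464%, 0.478% and 0.429% in old brain. Replicate 1 was low at both ages. Among replicates 2 to 4 all old shares lay below all young ones. How many other genes did so on this scale was not counted. With the TMM normalization described below, 24.5% of 16614 genes did so in these replicates. By count EPD ranked 13, 2, 2 and 2 in young and 38, 2, 3 and 7 in old libraries. Per length it ranked 49, 30, 18 and 22 and then 60, 39, 38 and 41, below its ranks in the footprints, for which other genes were left out and another annotation was used.

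With TMM normalization, which corrects for the composition of a library, EPD RNA stood at 2081, 5260, 5099 and 5017 counts per 1000000 (CPM) in young and at 1704, 4789, 5620 and 4577 CPM in old brain. Old replicate 3 was then the highest of the 8 libraries, and the ages overlapped. The means were 4364 ± 1526 CPM in young and 4173 ± 1706 CPM in old brain (SD, n = 4 per age). The log2 fold change was -0.06 ± 0.43 (standard error, adjusted p = 0.969 by edgeR), and its 95% interval ran from -1.04 to 0.91, a 0.487-fold to 1.88-fold ratio. EPD RNA was not called, while 57 of 16759 genes were (0.340%). The interval of this fit, which has no replicate block, leaves room for large changes in either direction.

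**Figure D4:**
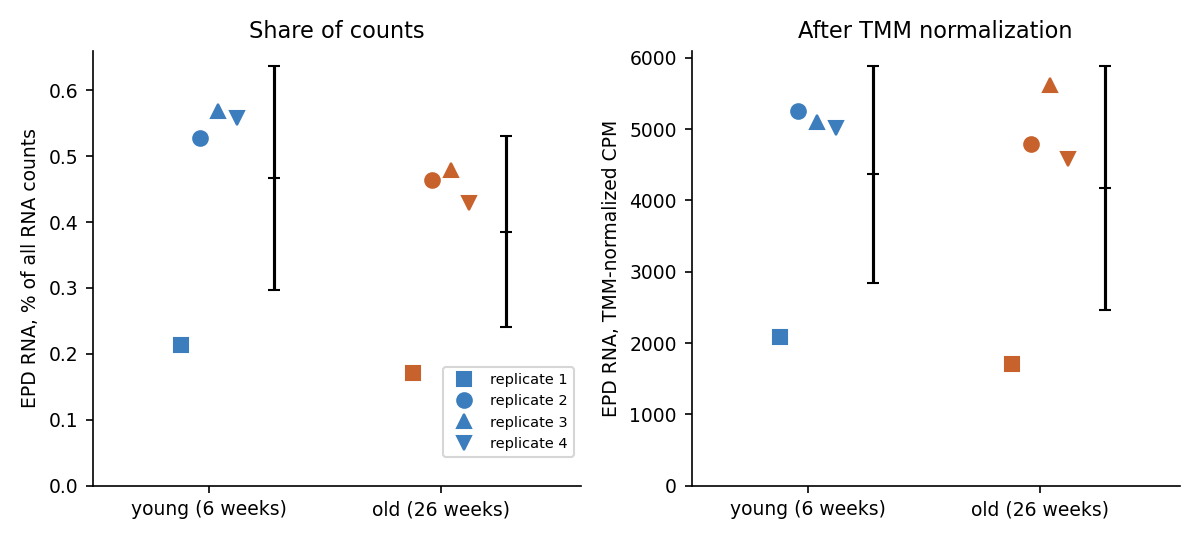
EPD RNA in each library as a percent of all counts (left) and as TMM-normalized CPM (right), for young and old brain. Symbols mark the replicate number, and the black bar gives the mean and SD of the 4 libraries of an age. Replicate 1 lies lowest at both ages in both panels, at 0.214% and 0.171% of counts.

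The replicate 1 RNA libraries stood apart from the other 6 on the first principal component, which held 57.3% of the variance. Without them, at 3 libraries per age, EPD RNA stood at 5187, 5377 and 5257 CPM in young and at 4776, 5129 and 4477 CPM in old brain. Every old library was then below every young library. Their means were 5274 ± 96.4 and 4794 ± 327 CPM, and the log2 fold change was -0.14 ± 0.09 (standard error, adjusted p = 0.282 by edgeR). The 95% interval, -0.35 to 0.07, was narrower than with all replicates and still included 0. An exact permutation test of the CPM values gave p = 0.1 (two-sided, n = 3 per age), the smallest value that 3 against 3 libraries allow. In these replicates edgeR called 5298 of 16614 genes (31.9%), and 24.5% of genes lay lower in old brain without overlap. Many genes thus shared the pattern of EPD, and EPD was not among the called ones.

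Summed over lists, other genes were also lower in the replicate 1 libraries, and their part in the low EPD values was not tested. The sums are led by the most abundant members. By mean over all libraries these were s100b of the astroglial list (3229 CPM), tfa and cpe of the secreted list (1459 and 1428 CPM) and mpz of the oligodendrocyte list (2764 CPM). The 4 named astroglial markers summed to 1761 CPM in young and 1441 CPM in old replicate 1. In replicates 2 to 4 they summed to 4451 to 6180 CPM in young and 2963 to 4974 CPM in old brain. The 11 named secreted proteins summed to 1419 and 1494 CPM in replicate 1, and to 4527 to 4970 CPM and 5419 to 5646 CPM in the others. The 17 named secretory route genes summed to 660 and 655 CPM in replicate 1, and to 1240 to 1355 CPM and 1282 to 1386 CPM in the others. The 7 named neuronal markers summed to 1202 and 1000 CPM in replicate 1, and to 1421 to 1698 CPM and 1849 to 2417 CPM in the others. The 6 named meningeal genes did not share this, with 148 and 190 CPM in replicate 1 and 120 to 156 CPM and 189 to 197 CPM in the others. The 4 oligodendrocyte markers differed by age. They summed to 3472 CPM in young replicate 1, below the 3728 to 5059 CPM of the other young libraries. In old replicate 1 they summed to 4467 CPM, within the 3115 to 4674 CPM of the other old libraries.

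The lists around ependymin gave 0 edgeR calls in RNA over all 4 replicates, among 11 secreted, 6 meningeal and 17 secretory route genes with a name. That fit called 0.340% of all genes tested, so 0 calls in lists of this size say little about their members. In replicates 2 to 4, where 16.0% of all genes were called higher and 15.9% lower, 1 of the 6 meningeal genes was called. This was fn1b, a fibronectin gene, whose level rose with age by a log2 difference of 0.97 (adjusted p = 0.000959 by edgeR). The gene cdh11, a cadherin of mesenchymal cells, had -0.04 (adjusted p = 0.833). The collagen gene col6a2 with identifier Nfu_g_1_017821 had 0.68 (edgeR adjusted p = 0.0534). Its namesake Nfu_g_1_020270 had -0.43 (edgeR adjusted p = 0.180). Of 17 secretory route genes, 2 were called higher and 6 lower. Among them sec62, a subunit of the translocation channel, rose by 0.38 (adjusted p = 0.0142). The disulfide isomerase gene pdia3 had a log2 fold change of -0.34 (adjusted p = 0.0256), and rpn1, of the enzyme that attaches sugars to new glycoproteins, -0.16 (adjusted p = 0.179). The medians were -0.08 in the meningeal list and -0.27 in the secretory route, beside 0.00 over all genes.

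Side by side, the EPD log2 ratios of old over young were -0.33 in footprint TPM and -0.06 in RNA CPM. Without young footprint replicate 4 and without the replicate 1 RNA libraries they were -0.74 and -0.14. These are unlike measures, since the CPM values are TMM-normalized and the footprint TPM values are not. As a plain share of counts, EPD RNA gave -0.28 over all replicates and -0.27 in replicates 2 to 4. The assays share no libraries by their labels, and their ratios were not tested against each other.

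**Figure D5:**
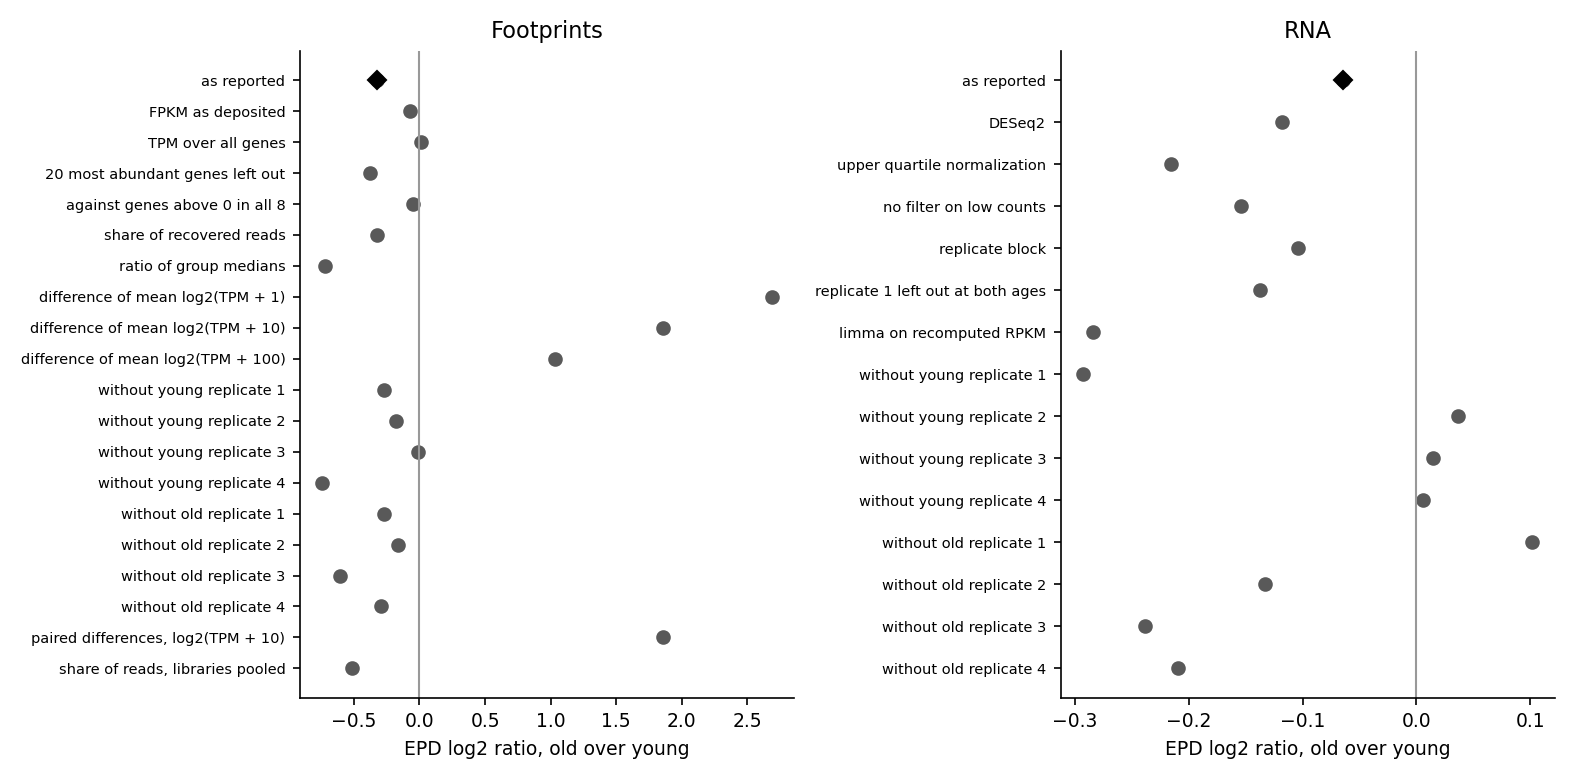
EPD log2 ratio of old over young under each setting, for footprints (left) and RNA (right), with the reported value as a black diamond. In footprints the log-scale differences, unpaired and as the mean over pairs, lie right of 0, at up to 2.68. Other settings lie near or left of 0. In RNA the values run from -0.29 to 0.10.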

How the data were processed

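Footprint values were deposited by the authors as FPKM for each symbol, which they obtained by aligning reads to NotFur1 with STAR and quantifying them with RSEM 1.3.1. For RNA, the authors deposited raw counts per gene made with bcl2fastq 1.8.4, STAR 2.4.1d and featureCounts 1.4.6-p4. The study's methods state a genome, an annotation and counting without strand for RNA from fish of different ages, for which the kit and the aligner also differed. For the RNA libraries analysed here, build and strand setting are not given in the sources used here. Without strand, reads of overlapping genes on opposite strands cannot be told apart. In the RefSeq table, which is of another assembly, no annotated gene overlaps epd. Overlap in the annotation behind the RNA counts was not checked. The authors also deposited RPKM values. Checked against the counts, 87.5% of these were scaled with a different library's total. RPKM was used for implied gene lengths (1588 bases for EPD) and, recomputed, in 1 alternative. Old RNA titles hold the number 22, but ages were taken from the age labels, 26 weeks. All columns were assigned to samples.

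Footprint reads were recovered as the smallest whole numbers that gave a gene's values, within 0.02 of a read or the rounding of the values. This gave whole reads for 99.3% of 6472 genes, and for 98.3% of 2587 genes detected in 2 libraries or more. A gene seen in a single library (3885 genes) was set to 1 read. Recovered genes held 93.7% to 98.1% of TPM after the 4 genes were left out. EPD values were within 0.000746 of a whole read. The recovery and the tests were tested on simulated data.

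RNA was tested with edgeR 4.0.16 (TMM, filterByExpr, quasi-likelihood) and footprints of list members with limma 3.58.1 (log2(TPM + 10), above 0 in at least 4 libraries). Benjamini-Hochberg adjustment ran over all genes tested, with a threshold of 0.05. Alternatives used DESeq2 1.42.0, other scalings, pseudocounts and filters, and left out libraries. RNA names came from the study's protein table, held in part, which names 2702 genes. EPD, the gene lists and the tests were chosen with earlier results of these data known. Named genes were the neighbours of EPD in rank, the 10 highest means, the 5 profiles most like EPD and, of each list, the 3 highest members. Other genes were named after their values were seen.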

Additional observations from a re-analysis of the deposited data

Results flagged for a closer look

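In 3 cases an EPD value lay far from the other 3 libraries of their age, all in RNA and all in replicate 1. In young replicate 1, EPD took 0.214% of counts, with the next library at 0.527%. After TMM normalization the same library had 2081 CPM, with the next at 5017 CPM. In old replicate 1, EPD took 0.171% of counts, with the next library at 0.429%. Chance flags about 1 in 20 groups of 4 libraries in this way, and shares and CPM of a library are not independent. The 0 reads of EPD in young footprint replicate 4 were not flagged.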

How the results depend on the processing

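The EPD footprint ratio of -0.33 stayed within the spread between libraries with FPKM as deposited (-0.07), TPM over all genes (0.01), the 20 highest genes left out (-0.38), medians (-0.72) and shares of recovered reads (-0.32, or -0.51 pooled, an alternative chosen after seeing the data). That spread was 1.14 log2 units, with the 0 of young replicate 4 included. A value could thus change sign, as with TPM over all genes, and still lie within it. The ratio moved to 2.68, 1.86 and 1.03 as a difference of mean log2 values with 1, 10 and 100 TPM added, where the 0 of young replicate 4 weighs most. Leaving out 1 library gave -0.74 to -0.01. The median rank of EPD, 2 in young and 4 in old libraries, became 6 and 8 with no gene left out and 7 and 12 by recovered reads. Leaving out 1 library gave 2 to 2.5 in young and 4 in old.

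EPD RNA was not called under any alternative run. DESeq2 gave -0.12, upper quartile scaling -0.22, and leaving out 1 library -0.29 to 0.10. The ratio turned above 0 when young replicate 2 (0.04), 3 (0.01) or 4 (0.01) was left out, and when old replicate 1 was (0.10). The 57 RNA calls became 761 with DESeq2, 37 without a filter, 86 with limma on recomputed RPKM, 5298 without replicate 1, and 0 to 638 leaving out 1 library. The 2 called footprint list members became 0 without a filter or with TPM over all genes, and 0 to 4 leaving out 1 library. The 52 limma calls over all genes likewise became 0 without a filter or with TPM over all genes. They became 0 to 97 leaving out 1 library, and 0 whenever that was an old library. Without an old library, genes at 0 in every young library were above 0 in fewer than the 4 libraries that the filter required. The 52 called genes and the 2 called list members were then not tested, so their loss was fixed by the filter. The causes of the other changes were not tested.

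Same-numbered RNA libraries had correlations of their deviations of 0.78, 0.44, 0.00 and 0.53, and footprint libraries of -0.06 to 0.05, so the numbers were not taken to pair libraries, and not every library correlated best with its own number. With the replicate number as a block, the mean paired difference of EPD footprints was 1.86 on log2(TPM + 10). With all pairs complete it equals the unpaired difference by construction, so it says nothing about pairing. The log2 ratios of EPD footprint TPM, old over young, were -0.65, -1.35 and -0.38 in replicates 1 to 3. In replicate 4 the young value was 0 and no ratio was formed. With the block, EPD RNA gave -0.10 (edgeR adjusted p = 0.636), and edgeR called 2658 RNA genes. In the footprint library with 329 recovered reads outside the 4 left-out genes, 0 EPD reads allow a share of up to 0.912% (3 reads) or 1.11% (exact interval).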

Other observations

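Among named secreted proteins other than EPD, RNA differed with age in replicates 2 to 4 for 5 of the 10 tested genes, beside 31.9% of all genes. Higher in old brain by edgeR were apoeb, an apolipoprotein gene (log2 fold change 0.82, adjusted p = 0.0444), psap, the precursor of the saposins (0.50, adjusted p = 0.0194), scg3, a secretogranin gene (0.36, adjusted p = 0.0110), and ctsd (0.27, adjusted p = 0.0459). Lower was mdkb, a midkine gene (-0.77, edgeR adjusted p = 0.00974). The most abundant of them, tfa and cpe, had -0.09 and 0.20 and were not called. With all 4 replicates, 0 of the 11 genes were called by edgeR, beside 0.340% of all genes. The genes apoeb, scg3, ctsd and mdkb were named after their values were seen.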
